A study of Mus musculus with 3 samples.

Results

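The data described here are the reads of 3 chromatin immunoprecipitation libraries in the first assembled megabase of each mouse autosome, the stretch of the mm9 assembly that lies next to the centromere. The rule took all 1 kb bins from 3000000 to 4000000 on chromosomes 1 to 19, which gave 19000 bins of 2415345 on the autosomes. Its choice used position alone and no read count. The libraries came from feeder-free mouse embryonic stem (ES) cells of the C57BL/6 strain, kept in serum with ESGRO, a leukaemia inhibitory factor product. The antibodies were directed against TET2 (an antibody made by the submitters), OGT (a commercial antibody) and H2B S112GlcNAc (an antibody provided by an outside researcher), with 1 library each. No input or control antibody library was used here, so every value includes whatever reads would be found with any antibody. With 1 library per antibody there is no replicate check, and differences between antibodies carry no p-value.

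Mouse chromosomes carry the centromere at one end. Around it lie long arrays of tandem satellite repeats, which form compact heterochromatin rich in DNA methylation, and these arrays are largely missing from the assembly. Each assembled autosome therefore opens with a stretch of unknown bases, and the sequence that follows is the nearest mapped neighbour of the satellites, with satellite copies and duplicated segments left in places. TET2 oxidises 5-methylcytosine, the methylated base of DNA. OGT is the enzyme that attaches the sugar O-GlcNAc to proteins and is known to bind TET2. H2B S112GlcNAc is histone H2B with that sugar on a serine. Reads of a repeat family have many equal matches. The sources used here do not say how such reads were placed.

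In total 3832237 reads came with TET2, 2179445 with OGT and 4647963 with H2B S112GlcNAc. Reads of the same 5′ position and strand were counted once to give distinct 5′ ends, 3297665, 1878601 and 4024073 in the 3 libraries in that order. No autosomal read lay before 3000000 in any library. The first megabases held 176225 TET2, 97667 OGT and 228359 H2B S112GlcNAc reads. They made up 4.60% of the TET2 library (95% interval 4.58 to 4.62), 4.48% of the OGT library (4.45 to 4.51) and 4.91% of the H2B S112GlcNAc library (4.89 to 4.93), while the bins are 0.787% of the autosomal bins. All intervals are exact for independent counts and cover counting error only. Copies made by PCR are not independent molecules, so intervals from all reads are too narrow where such copies were counted.

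Most of these reads sat in very few bins. Pile-up bins were defined as bins above 50 reads in every library. There were 53 of them in the first megabases, 0.279% of the bins, against 175 in the rest of the autosomes, and 0.00944% of all autosomal bins met the rule. They lay on 6 of the 19 chromosomes. The 53 bins held 82.6% of the TET2 reads of the first megabases, 82.1% of the OGT reads and 83.5% of the H2B S112GlcNAc reads. The bins closest above the threshold were chr11:3032001-3033000, with 85 TET2, 53 OGT and 113 H2B S112GlcNAc reads, then chr4:3017001-3018000, with a lowest count of 54, and chr11:3034001-3035000, with 70, 56 and 71. The closest below it were chr11:3033001-3034000, with 59, 49 and 96 reads, and chr13:3372001-3373000, with 73, 47 and 89.

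The largest pile-up was an unbroken block of 39 bins at the very start of chromosome 9, chr9:3000001-3039000. It held 125043 TET2 reads, 68052 OGT reads and 169151 H2B S112GlcNAc reads. That is 3.26% of the TET2 library (3.25 to 3.28), 3.12% of the OGT library (3.10 to 3.15) and 3.64% of the H2B S112GlcNAc library (3.62 to 3.66). The block accounted for 39%, 38.0% and 41.7% of the reads of chromosome 9, and its mean read density was 2173, 2086 and 2419 times the mean of the bins of the chromosome that were no pile-ups. It ended sharply. The next bin held 4 TET2, 4 OGT and 3 H2B S112GlcNAc reads.

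Within the block the 3 libraries shared their peaks and dips. Reads per bin ran from 775 to 7246 with a median of 3070 in TET2, from 439 to 3857 with a median of 1678 in OGT, and from 931 to 10226 with a median of 4089 in H2B S112GlcNAc. Over the 39 bins Pearson's r of the reads was 0.997 for TET2 with OGT, 0.997 for TET2 with H2B S112GlcNAc, and 0.995 for OGT with H2B S112GlcNAc, a description of bins that share 1 sequence. Distinct 5′ ends filled 35.1% of the available positions of both strands in TET2, 26.6% in OGT and 41.3% in H2B S112GlcNAc, so the count of distinct ends is nearer to its ceiling here in the deeper libraries. Each distinct end carried 4.57 TET2, 3.28 OGT and 5.25 H2B S112GlcNAc reads. For that reason all reads, not distinct ends, compare the antibodies in the block.

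The block also repeated itself. The log2(reads + 1) per position and strand was most like itself at a shift of 468 bp in all 3 libraries, among shifts of 100 to 1000 bp. The autocorrelation there was 0.0704 in TET2, 0.0646 in OGT and 0.0707 in H2B S112GlcNAc. At a shift of 234 bp it was 0.0658, 0.0563 and 0.0667, against medians over all those shifts of 0.00961 in TET2, 0.0101 in OGT and 0.00983 in H2B S112GlcNAc. The major satellite of the mouse is known as a tandem repeat with a unit of 234 bp. No genome of the mm9 build was used here, so what sequence the block holds was not checked.

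The strand of the reads separated the libraries in this block as no read total did. Of the reads in the block, 25.7% lay on the plus strand in TET2 (25.4 to 25.9), 19.7% in OGT (19.4 to 20.0) and 48.2% in H2B S112GlcNAc (48.0 to 48.5). In all 39 bins OGT had the lowest share, TET2 the middle one and H2B S112GlcNAc the highest. Per bin the share ran from 18.1% to 32.3% in TET2, from 11.2% to 24.8% in OGT and from 34.3% to 56.6% in H2B S112GlcNAc, so the range of H2B S112GlcNAc overlapped neither of the others. Over all reads of the libraries the plus share was 53.2%, 53.2% and 53.4%. Strand was not among the measures planned at the outset and was looked at after seeing the data.

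**Figure D1:**
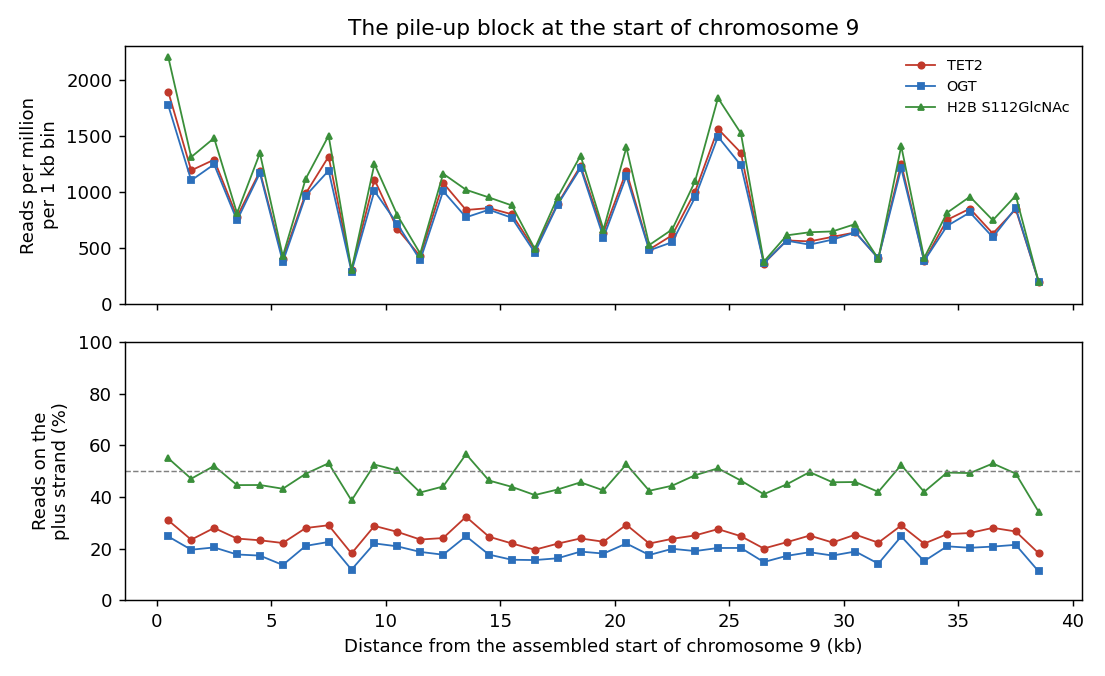
Reads per 1 kb bin scaled to library size (upper panel) and percent of reads on the plus strand (lower panel) against distance in kb from the assembled start of chromosome 9, with 1 line per library. The 3 libraries share their peaks and dips, and in the lower panel the H2B S112GlcNAc line (34.3% to 56.6%) lies above the TET2 line, which lies above the OGT line in all 39 bins.

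A comparison of antibodies at this block thus turned on the strand. Scaled to library totals, TET2 over H2B S112GlcNAc was 0.897 (0.890 to 0.903) for all reads, but 0.477 (0.471 to 0.483) on the plus strand and 1.29 (1.28 to 1.299) on the minus strand. OGT over H2B S112GlcNAc was 0.858 (0.850 to 0.866) for all reads, 0.350 (0.343 to 0.356) on the plus strand and 1.33 (1.32 to 1.35) on the minus strand. TET2 over OGT was 1.04 (1.04 to 1.05), 1.36 (1.34 to 1.39) and 0.967 (0.957 to 0.977) for the same 3 choices. The direction between any pair of antibodies therefore changed with the strand that was counted.

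The second pile-up, a pair of bins at chr12:3109001-3111000, repeated that pattern on the opposite strand. The first bin had 17634 reads in TET2, 10479 in OGT and 17620 in H2B S112GlcNAc at 220, 210 and 227 distinct ends, and the second 1450, 813 and 2207 reads at 159, 139 and 184. The bins beside this pair were no pile-ups. Together the pair held 0.498% of the TET2 library (0.491 to 0.505), 0.518% of the OGT library (0.509 to 0.528) and 0.427% of the H2B S112GlcNAc library (0.421 to 0.433). The plus strand held 94.5% of the TET2 reads, 95.7% of the OGT reads and 85.6% of the H2B S112GlcNAc reads.

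The ratios by strand stood close to those of chromosome 9 with the strands exchanged. TET2 over H2B S112GlcNAc was 1.29 (1.26 to 1.32) on the plus strand and 0.445 (0.414 to 0.478) on the minus strand, and OGT over H2B S112GlcNAc was 1.36 (1.33 to 1.39) and 0.359 (0.325 to 0.395). The pair held 50.4 TET2, 32.4 OGT and 48.2 H2B S112GlcNAc reads per distinct end. Its intervals are therefore too narrow if the repeated reads are copies. Position by position, the log2(reads + 1) of TET2 had a Pearson's r of 0.993 with OGT and 0.995 with H2B S112GlcNAc over the 2000 plus-strand positions, and OGT one of 0.993 with H2B S112GlcNAc. On the minus strand, which held fewer reads, the values were 0.910, 0.954 and 0.907. With the libraries offset by 1 bp they were 0.983, 0.984 and 0.984 on the plus strand and 0.881, 0.932 and 0.886 on the minus strand. The values thus mostly describe a shape shared by neighbouring positions, not single positions. Counted over all 228 pile-up bins of the autosomes, the plus share was 59.5% in TET2, 59.1% in OGT and 61.4% in H2B S112GlcNAc, a sum in which the minus-rich block of chromosome 9 and plus-rich bins offset each other. In the 175 pile-up bins after the first megabases the share was 75.3% in TET2, 76.6% in OGT and 68.1% in H2B S112GlcNAc. There TET2 over H2B S112GlcNAc was 1.15 (1.15 to 1.16) on the plus strand and 0.808 (0.799 to 0.817) on the minus strand, so the strands also differed outside the first megabases, by less than in the block.

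Chromosome 11 opened with a pile-up of another kind, broad and with few repeated reads. In its first 94 kb, chr11:3000001-3094000, which end with its last pile-up bin, the bins held a mean of 20.7 times the chromosome's mean of distinct ends in TET2, 22.5 times in OGT and 21.8 times in H2B S112GlcNAc. At least 10 times the mean was reached by 74, 74 and 75 of the 94 bins. Only 9 of the bins counted as pile-ups. Distinct ends per bin had a median of 30 in TET2, 19.5 in OGT and 43 in H2B S112GlcNAc, with highest bins of 154, 75 and 155, and a distinct end carried 1.14, 1.12 and 1.13 reads.

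The profile was shaped alike in the 3 libraries. Between 10 and 20 kb from the start, the density without pile-up bins dropped to 1.5 times the chromosome mean in TET2, 0.973 in OGT and 1.31 in H2B S112GlcNAc. Between 50 and 60 kb it stood at 27.7, 27.6 and 27.1 times, and between 100 and 110 kb at 1.44, 1.30 and 1.06 times. The 9 pile-up bins had 47.1% of TET2 reads, 45.1% of OGT reads and 46.4% of H2B S112GlcNAc reads on the plus strand, with overlapping intervals (44 to 50.2, 41.1 to 49.2 and 43.4 to 49.3). With so few ends per position, likeness at single positions cannot be judged here. Over the 94 kb, TET2 over OGT was 0.919 (0.869 to 0.973), TET2 over H2B S112GlcNAc 0.948 (0.905 to 0.993) and OGT over H2B S112GlcNAc 1.03 (0.976 to 1.09). The remaining 906 kb of the megabase were at 1.45, 1.44 and 1.45 times the chromosome mean. They include the bins from 94 to 100 kb, which were still raised, at 10.8 to 28.8 times in TET2, 6.49 to 22.7 in OGT and 10.6 to 28.2 in H2B S112GlcNAc.

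**Figure D2:**
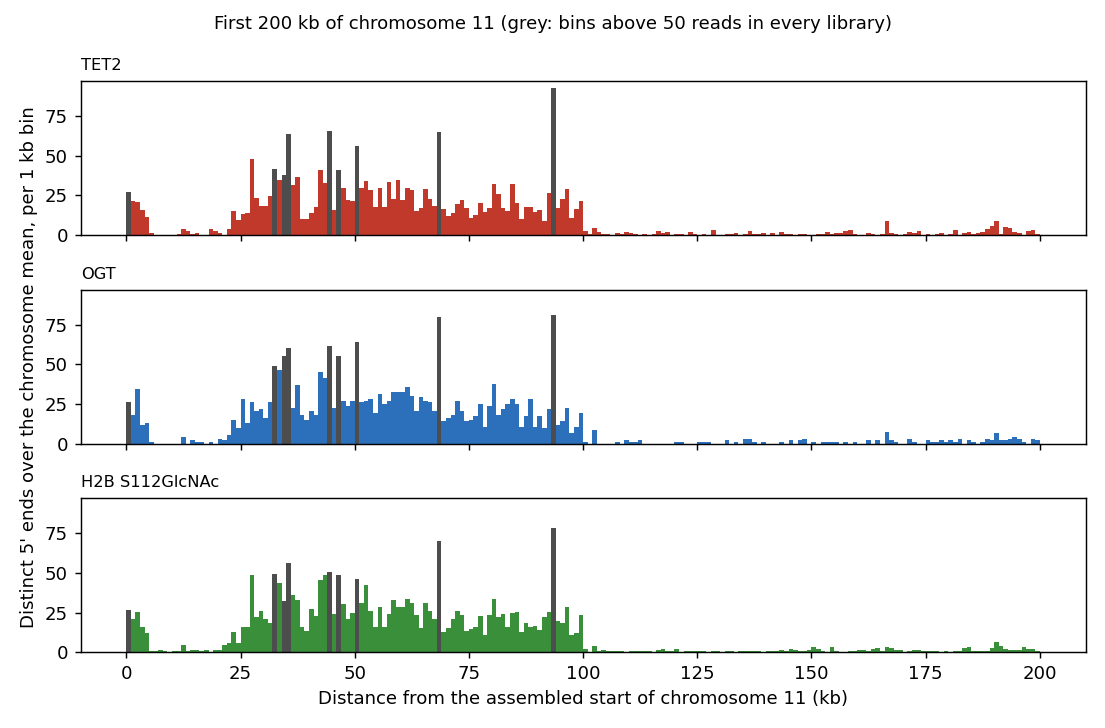
Distinct 5′ ends per 1 kb bin, as multiples of the mean of chromosome 11, against distance in kb from its assembled start, with 1 panel per library and pile-up bins in grey. In each panel a raised stretch with a gap near 10 to 20 kb ends at about 100 kb, after which the bins fall to about the chromosome mean.

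The remaining pile-ups were single bins. At chr4:3017001-3018000 TET2 had 126 reads and OGT 54, with H2B S112GlcNAc between them, and 84.9%, 90.7% and 75.0% of the reads lay on the plus strand. At chr6:3151001-3152000 the reads were 110, 69 and 176, and at chr18:3005001-3006000 they were 142, 69 and 154. These bins had between 1.16 and 1.58 reads per distinct end.

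Outside the pile-up bins the first megabases were only slightly denser than their chromosomes, and alike for the 3 antibodies. They held 28772 TET2, 16495 OGT and 35666 H2B S112GlcNAc distinct ends. Relative density was the number of ends over the number expected from the mean per bin of the same chromosome, summed over the 19 chromosomes. It was 1.16 for TET2 (1.15 to 1.17), 1.18 for OGT (1.16 to 1.19) and 1.18 for H2B S112GlcNAc (1.17 to 1.19). With every read counted it was 1.16, 1.17 and 1.18. With pile-up bins kept it was 2.28, 2.66 and 2.26 in distinct ends, and 6.04, 5.90 and 6.47 in reads.

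Chromosome 11 alone made most of this excess. Without it the relative density was 1.04 for TET2 (1.03 to 1.06), 1.05 for OGT (1.04 to 1.07) and 1.06 for H2B S112GlcNAc (1.05 to 1.07). The medians over the 19 chromosomes were 1.02, 1.07 and 1.07. The 19 chromosomes spread from 0.632 to 2.79 in TET2, from 0.604 to 2.91 in OGT and from 0.641 to 2.93 in H2B S112GlcNAc. A value above 1 was found on 10, 11 and 11 chromosomes, and the 95% interval lay above 1 on 9, 9 and 10 and below 1 on 7 in each library.

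The chromosomes kept nearly the same order in all 3 libraries. The highest were chromosome 11, chromosome 16 and chromosome 19. Chromosome 11 was at 2.79 (2.71 to 2.87) in TET2, 2.91 (2.80 to 3.02) in OGT and 2.93 (2.86 to 3.01) in H2B S112GlcNAc. Its first megabase was the densest of its 118 windows of 1 Mb in every library, which was so for no other chromosome. Chromosome 16 was at 1.54, 1.63 and 1.55 and chromosome 19 at 1.51, 1.45 and 1.48, where the first megabase ranked 11, 12 and 10 among 58 windows.

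The lowest were chromosome 1, chromosome 15 and chromosome 9. Chromosome 1 was at 0.632 (0.587 to 0.680) in TET2, 0.604 (0.545 to 0.667) in OGT and 0.641 (0.600 to 0.684) in H2B S112GlcNAc, and its first megabase ranked 150, 164 and 155 among 194 windows. Chromosome 15 was at 0.676, 0.715 and 0.741. Chromosome 9 was at 0.737, 0.781 and 0.771 without the pile-up bins. In reads with its block kept it was at 47.6, 46.4 and 50.9, the highest of all. Over the 19 chromosomes Pearson's r of the relative densities was 0.992 for TET2 with OGT, 0.994 for TET2 with H2B S112GlcNAc and 0.997 for OGT with H2B S112GlcNAc, and without chromosome 11 it was 0.974, 0.985 and 0.988. The chromosomes share their sequence, copy number and mappability between libraries, so these values only describe how alike the libraries are.

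**Figure D3:**
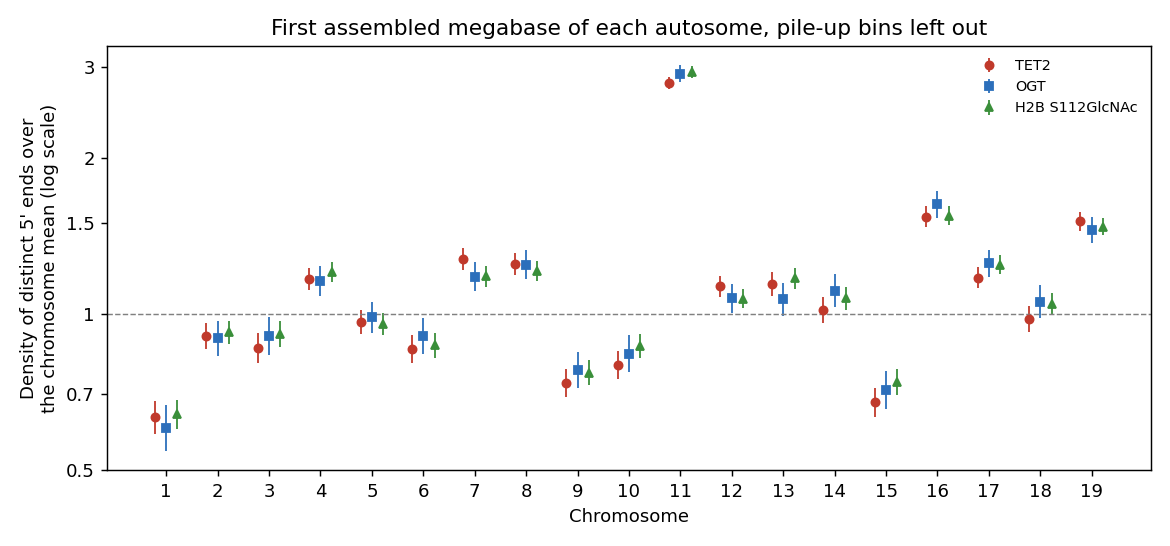
Density of distinct 5′ ends in the first megabase over the mean of the same chromosome (log axis), pile-up bins left out, for each of the 19 autosomes, with 1 point per library and exact 95% intervals for counting error. The 3 libraries lie together on each chromosome, from about 0.6 on chromosome 1 to about 2.9 on chromosome 11.

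No pair of antibodies differed by more than 2% in the summed relative density outside pile-up bins. TET2 over OGT was 0.987 (0.968 to 1.01), TET2 over H2B S112GlcNAc 0.984 (0.968 to 0.999) and OGT over H2B S112GlcNAc 0.997 (0.979 to 1.02). The interval of TET2 over H2B S112GlcNAc lay just below 1, and it included 1 without chromosome 11, at 0.987 (0.970 to 1.004). By chromosome the ratios ran from 0.917 to 1.08 for TET2 over OGT, from 0.912 to 1.08 for TET2 over H2B S112GlcNAc and from 0.911 to 1.05 for OGT over H2B S112GlcNAc. Of these 57 ratios, 4 had an interval off 1. TET2 over H2B S112GlcNAc was 1.08 (1.01 to 1.15) on chromosome 7, 0.952 (0.916 to 0.990) on chromosome 11 and 0.912 (0.835 to 0.996) on chromosome 15, and OGT over H2B S112GlcNAc was 0.911 (0.834 to 0.994) on chromosome 13. The intervals are not adjusted for the number of ratios.

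**Figure D4:**
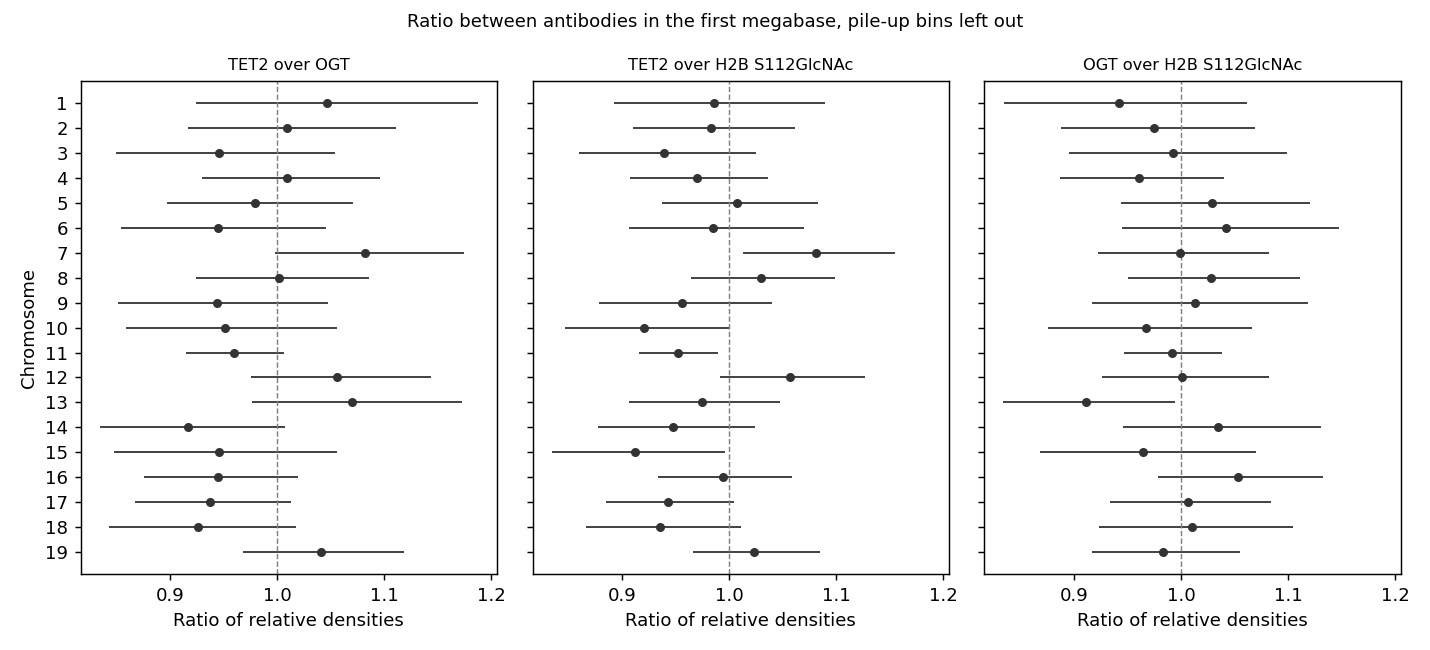
Ratio of the relative densities of a pair of antibodies in the first megabase of each autosome, with exact 95% intervals for counting error and a dashed line at 1. The ratios lie between 0.911 and 1.08, and 4 of the 57 intervals do not reach 1.

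Density depended on the distance from the assembled start mainly through the first 100 kb. Summed over the 19 autosomes and without pile-up bins, the first 100 kb were at 2.44 times the chromosome mean in TET2 (2.38 to 2.50), 2.56 in OGT (2.47 to 2.64) and 2.56 in H2B S112GlcNAc (2.50 to 2.62). From 100 kb on, the other 900 kb were at 1.02 (1.01 to 1.04), 1.03 (1.01 to 1.04) and 1.03 (1.02 to 1.04). Without chromosome 11 the first 100 kb were at 1.45, 1.52 and 1.5, and the other 900 kb at 1.0, 1.0 and 1.01.

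The rise at the start was not shared by most chromosomes. The median over the 19 chromosomes in the first 100 kb was 0.967 in TET2, 0.942 in OGT and 0.959 in H2B S112GlcNAc, and 8, 9 and 9 chromosomes were above 1. Beside chromosome 11, at 17.3, 18.4 and 18.8, the chromosomes above 2 in every library were chromosome 17, chromosome 4 and chromosome 3. Chromosome 17 was at 5.12 (4.76 to 5.49) in TET2, 5.61 (5.12 to 6.15) in OGT and 5.38 (5.05 to 5.74) in H2B S112GlcNAc. Chromosome 4 was at 3.34, 3.57 and 3.26, and chromosome 3 at 2.48, 2.35 and 2.59. The 61 bins of the first 100 kb of chromosome 9 outside the pile-up block were at 1.70, 2.06 and 1.83. Chromosome 19, high over the whole megabase, was at 0.634, 0.619 and 0.593 in its first 100 kb.

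The first 200 kb over the last 200 kb of the megabase gave a ratio of 1.74 (1.68 to 1.80) in TET2, 1.76 (1.68 to 1.84) in OGT and 1.87 (1.81 to 1.93) in H2B S112GlcNAc. The start side was the denser one on 14, 11 and 14 of the 19 chromosomes. Without chromosome 11 the ratio was 1.27 (1.22 to 1.32), 1.31 (1.24 to 1.37) and 1.38 (1.33 to 1.43). The ratio was highest in H2B S112GlcNAc, with an interval that did not overlap that of TET2, with or without chromosome 11, but overlapped that of OGT. At the depth of the OGT library the ratios with chromosome 11 were 1.72 (1.65 to 1.81) in TET2, 1.76 (1.68 to 1.84) in OGT and 1.85 (1.77 to 1.94) in H2B S112GlcNAc. These intervals all overlapped, but fewer ends widen them, so the overlap decides nothing between the libraries. For 500 kb at each end the ratios lay between 1.39 and 1.4. Leaving out bins above 20 reads in every library brought the ratios with chromosome 11 down to 1.29, 1.29 and 1.4.

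Further from the start the densities fell below the chromosome mean. The second megabase was at 1.04 in TET2, 1.04 in OGT and 1.02 in H2B S112GlcNAc, the third at 0.995, 0.982 and 0.991, and the fifth at 0.832, 0.828 and 0.822. From the fourth to the tenth megabase no value was above 0.945. The last megabase of the autosomes, at the telomere end, was at 1.02 (1.01 to 1.03), 1.01 (0.991 to 1.02) and 1.01 (1.0 to 1.02). The first megabase over the last was 1.14 (1.12 to 1.16), 1.17 (1.14 to 1.19) and 1.17 (1.15 to 1.18), and the first was the denser one on 12 of 19 chromosomes in each library. That ratio includes chromosome 11, without which the first megabases were at 1.04, 1.05 and 1.06, and it was not computed without that chromosome.

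**Figure D5:**
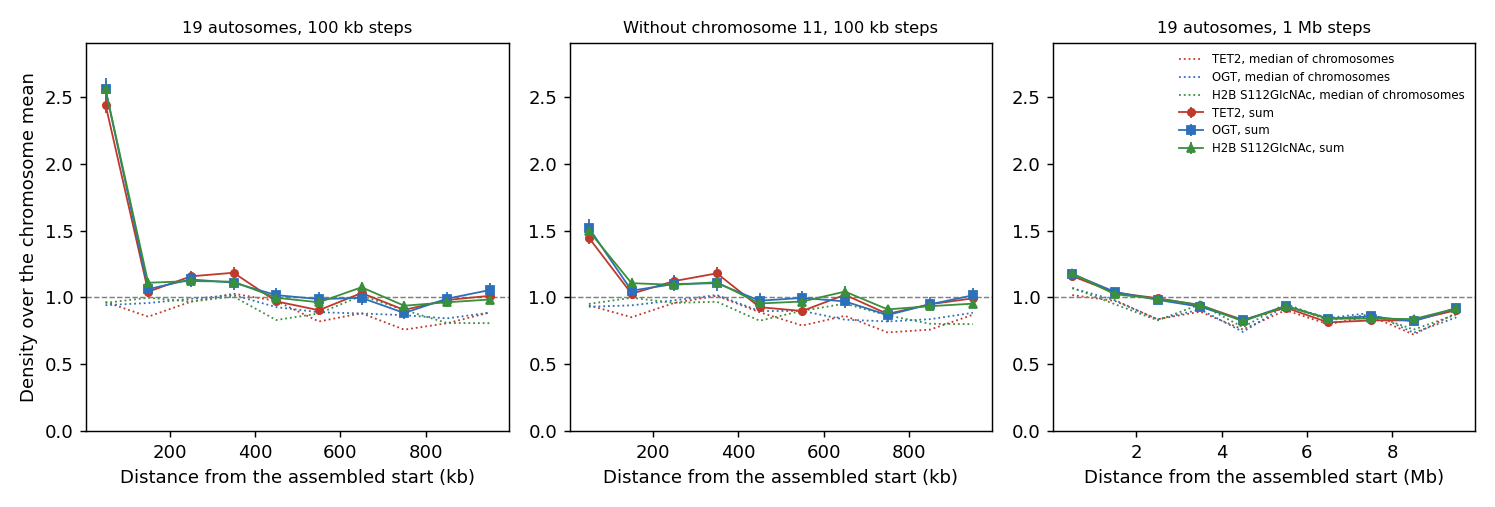
Density of distinct 5′ ends over the chromosome mean, pile-up bins left out, against distance from the assembled start, in steps of 100 kb for 19 autosomes (left), in the same steps without chromosome 11 (middle), and in steps of 1 Mb for 19 autosomes (right). Points are sums over chromosomes with exact 95% intervals, and dotted lines are medians over chromosomes. The first 100 kb stand at 2.44 to 2.56 in the sums and at 0.942 to 0.967 in the medians.

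Single bins well above their chromosome were somewhat more frequent in the first megabases than elsewhere. A high bin had at least 5 distinct ends and at least 5 times the chromosome mean, outside pile-up bins. Such bins made up 2.11% of the first megabases in TET2 (399 bins, 1.91 to 2.32), against 1.53% of all autosomal bins. In OGT they were 1.53% (289 bins, 1.36 to 1.71), against 0.875%, and in H2B S112GlcNAc 1.4% (266 bins, 1.24 to 1.58), against 0.744%. Chromosome 11 held 94, 101 and 81 of them. On the other 18 chromosomes the share was 1.70% in TET2, 1.05% in OGT and 1.03% in H2B S112GlcNAc, nearer to the shares over all autosomal bins.

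Many high bins were high in more than 1 library. In all 3 libraries 163 bins were high, of which 76 lay on chromosome 11. They were 40.9% of the TET2, 56.4% of the OGT and 61.3% of the H2B S112GlcNAc high bins. Over all autosomal bins 4132 were high in all 3, or 11.2%, 19.6% and 23.0%. The 192 bins high in both TET2 and OGT were 48.1% of the TET2 bins and 66.4% of the OGT bins. The 200 high in both TET2 and H2B S112GlcNAc were 50.1% and 75.2%, and the 172 high in both OGT and H2B S112GlcNAc were 59.5% and 64.7%. Those shares were larger than over all autosomal high bins, where TET2 and OGT shared 22.2% of the TET2 bins and 38.8% of the OGT bins, TET2 and H2B S112GlcNAc 23.7% and 48.8%, and OGT and H2B S112GlcNAc 24.6% and 28.9%. TET2 had 170 bins that were high in no other library, 42.6% of its high bins against 65.3% over the autosomes. OGT had 88, 30.4% against 56.2%, and H2B S112GlcNAc 57, 21.4% against 45.3%. These shares were not tested and include the dense start of chromosome 11. Drawn down to the 1878601 distinct ends of the OGT library, TET2 had 359 high bins (1.89%, against 1.19% of all autosomal bins), OGT 289 (1.53% against 0.875%) and H2B S112GlcNAc 290 (1.53% against 0.767%).

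Outside the pile-up bins, the bins with the most distinct ends were mostly on chromosome 11. Among them the leading one of TET2 and of H2B S112GlcNAc was chr11:3027001-3028000, with 80 TET2, 24 OGT and 96 H2B S112GlcNAc ends, or 48.0, 25.9 and 48.3 times the chromosome mean. The bin chr11:3042001-3043000, among the first 3 of every library, had 68, 42 and 90 ends. The leading OGT bin was chr13:3372001-3373000, with 66, 45 and 75 ends, or 56.0, 66.7 and 51.3 times the mean. It lay just under the pile-up threshold.

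The bin chr7:3388001-3389000 stood apart from these. It held 73 TET2 ends from 92 reads, against 8 OGT ends from 8 reads and 11 H2B S112GlcNAc ends from 11 reads. That is 54.3 times the chromosome mean in TET2, 10.5 times in OGT and 6.74 times in H2B S112GlcNAc. Scaled to the chromosome means, TET2 over OGT was 5.17 (2.49 to 12.4) and TET2 over H2B S112GlcNAc 8.05 (4.25 to 16.8). Bins with a minimum of 20 ends were also called at 3 times apart. With TET2 over OGT, 2 of 108 such bins in the first megabases were higher, against 247 of 1288 over the autosomes. These were this bin and chr19:3851001-3852000, which had 20 TET2 and 2 OGT ends. With TET2 over H2B S112GlcNAc, 1 of 128 was higher, against 335 of 1391. Such calls were thus less frequent here than over the autosomes, which was not tested. The 43 minus-strand TET2 ends of chr7:3388001-3389000 had a median 86 bp to the right of that of the 30 plus-strand ends. In bins dense in every library such offsets went in both directions. At chr4:3010001-3011000 the minus-strand median lay to the right by 205.5 bp in TET2, 34 bp in OGT and 228.5 bp in H2B S112GlcNAc. At chr11:3042001-3043000 it lay to the left in TET2 (-278 bp) and OGT (-51 bp), and to the right in H2B S112GlcNAc (40.5 bp). The 86 bp of chr7:3388001-3389000 thus lay between the TET2 offsets of these dense bins.

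Windows of 100 kb gave few differences between antibodies, at full depth in shares near those over all autosomal windows or below them. A window counted when its densities over the chromosome means were at least 1.5 times apart with an interval off 1. Of 190 windows, 0 were higher in TET2 than in OGT, against 0.625% of all autosomal windows, and 3 were lower (1.58%), against 1.6%. For TET2 and H2B S112GlcNAc, 0 were higher, against 0.15%, and 2 lower (1.05%), against 0.971%. For OGT against H2B S112GlcNAc, 0 were higher, against 0.658%, and 1 lower (0.526%), against 0.925%. At the depth of the OGT library the counts with TET2 over OGT were 1 higher and 6 lower (0.526% and 3.16% of the 190, against 0.854% and 2.20% of all windows), and with OGT over H2B S112GlcNAc 0 higher and 3 lower (1.58% lower, against 1.28%). At neither depth were the counts tested against the other windows. The lowest TET2 over OGT ratio was at chr14:3400001-3500000, with 63 TET2 against 65 OGT ends and a ratio of 0.560 (0.389 to 0.804), and the next at chr3:3500001-3600000, with 48 against 46 and 0.600 (0.392 to 0.919). The lowest TET2 over H2B S112GlcNAc ratio was 0.628 (0.448 to 0.873) at chr17:3700001-3800000, with 57 against 109 ends, followed by 0.662 (0.456 to 0.949) at the same window of chromosome 3, with 48 against 90.

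The highest ratios were smaller in size. TET2 over OGT reached 1.42 (0.976 to 2.09) at chr3:3200001-3300000 and 1.4 (1.03 to 1.94) at chr2:3600001-3700000. TET2 over H2B S112GlcNAc reached 1.44 (1.22 to 1.70) at chr7:3300001-3400000, which holds the TET2-rich bin of chromosome 7, and 1.24 (0.988 to 1.57) at chr12:3400001-3500000. For OGT over H2B S112GlcNAc the extremes were 1.46 (0.964 to 2.20) at chr3:3600001-3700000, 1.38 (1.01 to 1.88) at chr18:3600001-3700000, 0.653 (0.428 to 0.971) at chr10:3600001-3700000 and 0.680 (0.457 to 0.991) at chr9:3400001-3500000. The median ratio of the 190 windows was 0.982 for TET2 over OGT, 0.987 for TET2 over H2B S112GlcNAc and 0.998 for OGT over H2B S112GlcNAc, beside 0.990, 0.985 and 0.995 over all 23999 windows.

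Correlations between libraries were higher over the first megabases than over the rest of the autosomes, along with a wider range of densities. In windows of 10 kb without pile-up bins, Pearson's r of the density over the chromosome mean was 0.956 for TET2 with OGT over 1897 windows, against 0.693 over 239625 windows of the rest. For TET2 and H2B S112GlcNAc it was 0.969 against 0.812, and for OGT and H2B S112GlcNAc 0.964 against 0.705. Without chromosome 11 the 3 values in the first megabases were 0.903, 0.931 and 0.915. The variance over the mean of 1 kb bins in the first megabases was 7.28 in TET2, 4.51 in OGT and 8.47 in H2B S112GlcNAc. Without chromosome 11 it was 4.38, 2.80 and 4.47, and in the rest of the autosomes 2.46, 1.84 and 1.95. How far the wider range of densities goes with the higher r was not tested. The spread of the log2 ratios between libraries over 100 kb windows was nearly the same, with an SD of 0.24 for TET2 over OGT, against 0.26 over all autosomal windows, 0.20 against 0.21 for TET2 over H2B S112GlcNAc and 0.22 against 0.24 for OGT over H2B S112GlcNAc. Windows share mappability and copy number between libraries, and the part of each was not tested.

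Bins without any read were about as common as elsewhere. In the first megabases 1920 bins, 10.1%, had no read in any library, against 11.9% in the rest of the autosomes. The share ran from 1.8% on chromosome 11 to 19.4% on chromosome 1. The longest empty stretches were chr14:3382001-3432000, of 50 kb, and chr16:3182001-3231000, of 49 kb, followed by stretches of 5 kb at chr2:3204001-3209000 and chr9:3508001-3513000. The window chr14:3400001-3500000 named above overlaps the first of these. Just past the second lay chr16:3236001-3237000, with 55 TET2, 40 OGT and 74 H2B S112GlcNAc ends, or 47.6, 60.1 and 51.9 times the chromosome mean. Whether the empty stretches are gaps of the assembly was not checked, since no mm9 sequence was used here.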

How the data were processed

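The authors deposited 1 file of aligned reads per library, 1 line per 44 bp read, and the deposited score column held 1 fixed value throughout and was not used. CASAVA 1.4, Bowtie 0.12.2 and the build mm9 are named, with no role, per the submitters' processing notes. How multiple matches and duplicates were handled is not stated there or in the labels. Positions are the deposited start and end coordinates. The OGT file names chromosomes by sequence identifier. Of the 1000 positions with the most reads, TET2 shared 894 with OGT and 840 with H2B S112GlcNAc, and OGT shared 815 with H2B S112GlcNAc.

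Reads were placed by 5′ end in 1 kb bins, as all reads and as distinct ends. The chromosome mean covers bins from 3000000 to the last bin with a read, under the same treatment of pile-up bins. Intervals are exact at 95% (Poisson, Clopper-Pearson, conditional binomial for ratios). The ratio functions were tested on simulated data. Named regions were the pile-up bins with the most reads, the 3 highest and lowest chromosomes, the 3 fullest bins per library, the 2 extreme 100 kb windows each way per pair and the longest empty stretches. The single pile-up bins, the 94 kb of chromosome 11, the chromosomes named for their first 100 kb and the named bins of chromosomes 4, 16 and 19 were chosen after their values were seen. The regions, rules and alternatives were chosen with earlier results of these data known. Python 3.11.15, numpy 2.4.6, scipy 1.17.1 and pandas 2.3.3 were used.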

Additional observations from a re-analysis of the deposited data

Results flagged for a closer look

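The rule for the first megabases took autosomes alone, so chromosome X entered no comparison. Its first megabase held 1076 TET2, 622 OGT and 1406 H2B S112GlcNAc reads, above the limit of 3 that a count of 0 allows. Relative to the mean of chromosome X the density of distinct ends was 1.61 in TET2 (1.52 to 1.71), 1.60 in OGT (1.48 to 1.73) and 1.67 in H2B S112GlcNAc (1.59 to 1.76), and no bin there was a pile-up.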

How the results depend on the processing

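No paired analysis was possible because there was only 1 library for each antibody. Alternatives gave 162 values. Of these, 86 lay within the 95% interval of the reported value or, for counts, within 1.5 times of it, and the others lay outside it. Values are given for TET2, OGT and H2B S112GlcNAc in that order. Relative density was 2.28, 2.66 and 2.26 with pile-up bins kept, and 6.04, 5.90 and 6.47 in reads with them kept. Leaving out bins above 20 reads in every library gave 1.06, 1.07 and 1.08, bins above 50 reads in any library 1.08, 1.09 and 1.09, and bins within 2 kb of a pile-up 1.12, 1.13 and 1.13. Over the median of 1 Mb windows it was 1.29, 1.29 and 1.28. Leaving out each chromosome in turn, the lowest values were 1.04, 1.05 and 1.06, without chromosome 11, and the highest 1.19, 1.20 and 1.21.

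The start side over the far side was 7.53, 9.28 and 7.57 with pile-up bins kept, and 29.5, 28.1 and 32.6 in reads with them kept. Under the same 3 stricter masks it was 1.29, 1.29 and 1.4, then 1.36, 1.38 and 1.46, then 1.52, 1.55 and 1.64. For 100 kb at each end it was 2.41, 2.42 and 2.60, and for 500 kb 1.4, 1.39 and 1.39. Leaving out chromosome 11 gave the lowest values, 1.27, 1.31 and 1.38, and chromosome 19 the highest, 1.92, 1.93 and 2.05. Between antibodies, TET2 over OGT was 0.857, TET2 over H2B S112GlcNAc 1.01 and OGT over H2B S112GlcNAc 1.18 in distinct ends with pile-up bins kept, and 1.02, 0.935 and 0.913 in reads. TET2 over H2B S112GlcNAc was also 1.01 over the median of 1 Mb windows. Of 39 alternative ratios between antibodies, 8 lay on the other side of 1 from the reported value. They were 2 of 13 for TET2 over OGT, 2 of 13 for TET2 over H2B S112GlcNAc and 4 of 13 for OGT over H2B S112GlcNAc. Only 2 had an interval off 1, both with pile-up bins kept: TET2 over OGT in reads and OGT over H2B S112GlcNAc in distinct ends. For TET2 over H2B S112GlcNAc 0 had. No pair thus kept its side of 1 under every alternative. A position counts once as a distinct end, and in the chromosome 9 block 35.1%, 26.6% and 41.3% of positions were filled. How far this moved the ratios with pile-up bins kept was not tested at equal depth.

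High bins at 8 ends and 8 times the mean numbered 182, 141 and 146. At a ratio of 2 no window of 100 kb was left (0 for TET2 over OGT, TET2 over H2B S112GlcNAc and OGT over H2B S112GlcNAc, lower). At these stricter limits the shares over all autosomal bins and windows were not computed. The counts therefore cannot be set against the rest of the autosomes. Drawn down to the depth of the OGT library, windows lower in TET2 than in OGT numbered 6, higher 1, and lower in OGT than in H2B S112GlcNAc 3, where all windows gave 2.20%, 0.854% and 1.28% for the same 3 calls. The correlations for TET2 with OGT, TET2 with H2B S112GlcNAc, and OGT with H2B S112GlcNAc were 0.992, 0.993 and 0.995 in 100 kb windows, 0.999, 0.9997 and 0.999 with pile-up bins kept, and 0.903, 0.931 and 0.915 without chromosome 11, an alternative chosen after seeing the data. Masks that remove dense bins lower the densities by construction. For the other changes the cause was not tested.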

Other observations

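Repeated reads outside pile-up bins were about as frequent in the first megabases as in the rest of the autosomes. They made up 6.25% of TET2, 5.89% of OGT and 5.61% of H2B S112GlcNAc reads, against 6.15%, 6.55% and 5.42% in the rest. The plus strand held 53.5% of the TET2 ends outside pile-up bins (52.9 to 54.0), 53.9% of the OGT ends (53.1 to 54.6) and 54.1% of the H2B S112GlcNAc ends (53.6 to 54.7), against 52.4%, 52.5% and 52.5% in the rest. Outside pile-up bins the shares of the 3 libraries thus lay close together, with overlapping intervals.

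Pairs of a plus-strand end and a minus-strand end 50 to 249 bp to its right were more frequent than pairs 1000 to 1999 bp apart, per bp of distance. In the first megabases without pile-up bins the excess was 1.77 times in TET2 (1.73 to 1.80), 1.53 in OGT (1.48 to 1.59) and 1.60 in H2B S112GlcNAc (1.58 to 1.63). In the rest of the autosomes it was 2.07, 2.16 and 1.45, and in the first megabases without chromosome 11 it was 2.07, 1.70 and 1.74. The excess had no maximum within 50 to 249 bp. In the first megabases it was 3.30, 3.16 and 3.05 at 30 to 49 bp, distances near the read length of 44 bp. It fell to 2.44, 2.03 and 2.16 at 50 to 99 bp and to 1.32, 1.23 and 1.29 at 200 to 249 bp. An end can enter several pairs, so the intervals are too narrow.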
